A study of Homo sapiens with 6 samples.

Results

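The genes of BCR-ABL1 signalling and its STAT5 arm followed through iron chelation were BCR and ABL1 (the fusion partners), CRKL, GRB2 and GAB2 (adaptors), STAT5A and STAT5B (transcription factors), and PIM1, CISH and SOCS2 (STAT5 targets). They were taken by name, a rule that uses no measured value but was set with earlier results of these data known, as the transcripts that GENCODE release 44 (genome build GRCh38, used for all coordinates) assigns to these 10 of 62252 genes. All 10 entered the test, together with 26074 genes in all. Their estimated counts made up between 0.328% and 0.389% of a library.

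The libraries came from K562, an erythroid leukemia line that carries the BCR-ABL1 fusion, so every library is from a BCR-ABL1 positive line. The Chelator group (n = 3) was kept overnight in complete RPMI with 10 µM 21H7, a cell-permeable iron chelator, and the DMSO group (n = 3) in the same medium with an equal volume of solvent. The design has 1 line, 1 dose and 1 time of sampling, and no source used here says whether the 3 libraries of a group came from separate cultures, so p-values measure the spread between these libraries. Polyadenylated RNA was sequenced as read pairs, and the abundance of each annotated transcript was estimated by salmon.

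BCR-ABL1 arises when the start of BCR is joined to the kinase part of ABL1, which leaves the ABL1 tyrosine kinase constantly active. The fusion protein binds GRB2 and, through it, GAB2, phosphorylates CRKL, and keeps STAT5 in its active, nuclear form. Active STAT5 switches on PIM1, CISH and SOCS2. PIM1 is a survival kinase, while CISH and SOCS2 feed back to restrain cytokine signalling. These events take place largely on proteins and their phosphorylation, and none of that was measured in these libraries.

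STAT5 binds DNA as a dimer at the palindrome TTCNNNGAA, which reads the same on both strands. The stretches before the starts of CISH and PIM1 are shown because both genes had higher RNA levels in Chelator, while their sequences differ in this motif. Sequences are from RefSeq (GRCh38.p14), cover the 250 bases before the gene start, and are written 5′ to 3′ on the gene's strand. Capitals mark TTCNNNGAA.
CISH, chr3:50611775-50612024, minus strand: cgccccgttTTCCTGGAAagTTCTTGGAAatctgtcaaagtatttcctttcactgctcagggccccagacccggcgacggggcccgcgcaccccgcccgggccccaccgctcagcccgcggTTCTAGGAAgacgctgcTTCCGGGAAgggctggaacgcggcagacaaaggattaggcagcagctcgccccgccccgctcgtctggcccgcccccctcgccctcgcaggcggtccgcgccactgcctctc
PIM1, chr6:37169902-37170151, plus strand: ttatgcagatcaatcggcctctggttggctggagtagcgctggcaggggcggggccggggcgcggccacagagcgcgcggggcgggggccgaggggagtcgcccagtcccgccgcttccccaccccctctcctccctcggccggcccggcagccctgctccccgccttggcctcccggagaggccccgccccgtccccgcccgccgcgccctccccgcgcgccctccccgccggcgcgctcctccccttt
The CISH stretch held 4 matches, TTCCTGGAA, TTCTTGGAA, TTCTAGGAA and TTCCGGGAA, whose first bases lay 241, 230, 129 and 112 bases before the start. None overlapped another. The PIM1 stretch held 0, which says only that these letters are not in this window. Among the 9 genes with an entry CISH alone had a match, and SOCS2 had no entry. Of 35116 such windows, 2306 (6.57%) held at least 1 match and 5 (0.0142%) held at least 4. A match is a description of the sequence, and binding was not measured.

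Library depth was between 78615500 and 101094957 estimated counts. All 14 erythroid and K562 markers were above 1 TPM (a length-normalized measure of transcript abundance) in every library, with a summed level of 17175 to 18769 TPM in DMSO and 22804 to 24305 in Chelator. Of the markers of other cells, 2 of 8 lymphocyte genes, 2 of 6 monocyte genes (LYZ and CD68) and 1 of 6 fibroblast genes (COL1A2) exceeded 1 TPM throughout. The summed lymphocyte list lay between 12.5 and 18.5 TPM in DMSO and between 43.1 and 45.2 in Chelator. The monocyte list lay between 43.6 and 47.8 and between 58.8 and 64.3, and the fibroblast list between 2.77 and 3.41 and between 3.48 and 3.95. MS4A1 was at 0 in all libraries. Sequenced fragments, read from the effective lengths, were 252 to 264 bases long in DMSO and 200 to 218 in Chelator, without overlap. The part of fragment length and of these markers in the results below was not tested. DMSO replicate 2 stood apart from replicates 1 and 3, with a chi-square per gene of 63.5 and 44.3 against 8.52 between those, and mitochondrial RNA ran from 4.42% of its counts to 7.06% in DMSO replicate 1. Chelator replicate 1 likewise differed more from replicates 2 and 3 (29.9 and 28.1) than they did from each other (6.54). Leaving out DMSO replicate 2, or Chelator replicate 1, left the same 7 of the 10 genes past the gene-level test. Their effect on transcript usage is given with those results.

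Of the 10 genes, 7 changed at an adjusted p under 0.05, 3 higher and 4 lower in Chelator. The background for this rule was 37.7% of all genes with an adjusted p (19.5% higher and 18.3% lower), and 63% of genes averaging 1000 or more normalized counts, a level that all 10 exceeded. The normalized counts of the groups did not overlap for the same 7 genes, against 47.3% of all genes tested and 69.5% of those with at least 1000 counts. A share of 7 in 10 is therefore near the background of genes this abundant. Adding the study's threshold of a log2 fold change above 1 in size left 0 of the 10, against 10.8% of all genes (8.18% higher and 2.6% lower). Without adjustment 7 had a p under 0.05, and edgeR also passed 7 and called 0 with the fold threshold. Among all genes called, 75.9% were higher. The median log2 fold change of the 10 was −0.03, beside 0.02 for all genes with an adjusted p and −0.09 for those with at least 1000 counts. Since RNA was measured in bulk and relative to the library, a change in cell number or type and a change in RNA per cell cannot be told apart.

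**Figure D1:**
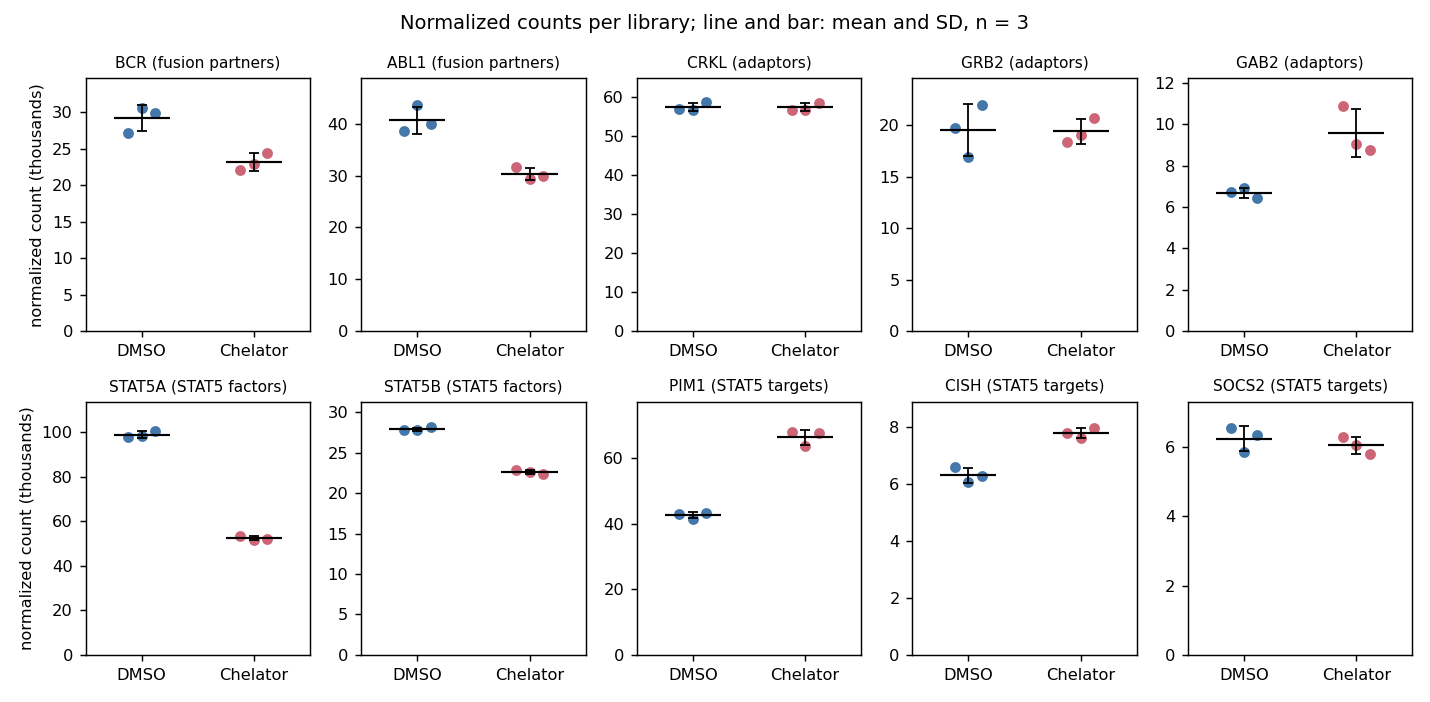
Normalized counts (in units of 1000, vertical axis from 0) of the 10 genes in each library of the DMSO and Chelator groups, 1 panel per gene; points are libraries, lines and bars are the mean and SD (n = 3). The groups separate for BCR, ABL1, GAB2, STAT5A, STAT5B, PIM1 and CISH and overlap for CRKL, GRB2 and SOCS2.

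Both fusion partners had lower RNA levels after chelation. For BCR (ENSG00000186716.21, chr22:23179704-23318037, plus strand), whose product has kinase and guanine nucleotide exchange parts, the normalized counts were 27185, 30622 and 29853 in DMSO and 22134, 22927 and 24449 in Chelator. Every Chelator library lay below every DMSO library. The mean fell from 29220 ± 1803 to 23170 ± 1176 (SD, n = 3), or −0.33 on the log2 scale (SE 0.0747, 95% interval −0.481 to −0.188, DESeq2 adjusted p = 4.06e-05).

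ABL1 (ENSG00000097007.20, chr9:130713043-130887675, plus strand) encodes the tyrosine kinase itself. Its normalized counts were 38565, 43567 and 39882 in DMSO and 31554, 29257 and 29991 in Chelator, again without overlap. The mean decreased by 25.6%, from 40672 ± 2593 to 30267 ± 1173 (log2 fold change −0.43, SE 0.0723, adjusted p = 3.19e-08). The ratio of the fusion partners overlapped between the groups. ABL1 over BCR was 1.17, 1.18 and 1.11 in DMSO and 1.18, 1.06 and 1.02 in Chelator, a log2 difference of −0.09 (exact permutation test, two-sided p = 0.4). Of the 31-base sequences in the main BCR transcript, 12.5% also occur in other genes (7.99% in ENSG00000284070), so its counts are uncertain to that extent. All of the transcript identifiers in the files are Ensembl transcripts, so no fusion transcript was quantified. RNA from the fused and the normal alleles cannot be told apart in these sums.

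ABL2, the close relative of ABL1 and the only other gene listed with it, also fell. Its normalized counts were 5902, 8922 and 6785 in DMSO and 4110, 3756 and 3583 in Chelator (log2 fold change −0.92, SE 0.129, adjusted p = 1.29e-11).

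The 3 adaptors did not move together. CRKL (ENSG00000099942.13, chr22:20917407-20953747, plus strand), an SH2 and SH3 adaptor heavily phosphorylated by BCR-ABL1, had normalized counts of 57005, 56675 and 58726 in DMSO and 56759, 56660 and 58478 in Chelator. The libraries of the groups interleaved, with a log2 fold change of −0.00 (estimate −0.0043, SE 0.0585, 95% interval −0.119 to 0.11, adjusted p = 0.968). This value depends on the length offset described below: on counts without it, CRKL was lower by a log2 fold change of −0.18 (adjusted p = 0.00403).

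GRB2 (ENSG00000177885.15, chr17:75318076-75405709, minus strand) links the phosphorylated fusion to the RAS activator SOS1. Its normalized counts were 19736, 16940 and 21922 in DMSO and 18388, 19044 and 20690 in Chelator. DMSO libraries spread more widely than Chelator libraries and enclosed them. The log2 fold change was −0.01 (SE 0.0964, interval −0.201 to 0.177, adjusted p = 0.946), so a change of up to about these bounds could not be seen.

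GAB2 (ENSG00000033327.13, chr11:78215293-78418348, minus strand), the docking protein that brings PI3 kinase and the phosphatase SHP2 to the complex, was the adaptor that rose. Its normalized counts were 6714, 6920 and 6432 in DMSO and 10890, 9075 and 8748 in Chelator. All Chelator libraries were higher, replicate 1 most of all. The mean increased by 43.1%, from 6689 ± 245 to 9571 ± 1154 (log2 fold change 0.52, SE 0.0927, adjusted p = 1.94e-07).

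Both STAT5 genes fell, and STAT5A had the largest change in size of the 10 genes. For STAT5A (ENSG00000126561.18, chr17:42287547-42311943, plus strand) the normalized counts were 97767, 98246 and 100769 in DMSO and 53608, 51771 and 52142 in Chelator. The groups lay far apart and each was tight. The mean decreased by 46.9%, from 98927 ± 1613 to 52507 ± 972, or −0.91 on the log2 scale (SE 0.058, interval −1.03 to −0.8, adjusted p = 7.74e-54).

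STAT5B (ENSG00000173757.11, chr17:42199176-42288633, minus strand), its neighbour and close paralog, had normalized counts of 27752, 27867 and 28126 in DMSO and 22909, 22592 and 22398 in Chelator. These also did not overlap. Its mean decreased by 18.9%, from 27915 ± 191 to 22633 ± 258 (log2 fold change −0.30, SE 0.0579, adjusted p = 1.18e-06).

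The balance of the paralogs differed between the groups. STAT5A over STAT5B, as a ratio of TPM, was 4.19, 4.19 and 4.26 in DMSO and 2.78, 2.72 and 2.77 in Chelator. It was lower in every Chelator library, with a log2 difference of −0.61. With 3 libraries against 3 the exact permutation test (two-sided) cannot go below p = 0.1, the value found, or 0.133 adjusted over the 4 ratios computed. Of the 31-base sequences in the main STAT5A transcript, 18% also occur in STAT5B, and 13.6% of those in the main STAT5B transcript occur in STAT5A. The genes lie on opposite strands and overlap at their 5′ starts. Counts of the pair are therefore uncertain to the extent that salmon could not assign shared reads.

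Of the STAT5 targets, PIM1 and CISH rose and SOCS2 did not pass the test. PIM1 (ENSG00000137193.14, chr6:37170152-37175428, plus strand), a serine/threonine kinase, had normalized counts of 43073, 41509 and 43271 in DMSO and 67888, 63683 and 67579 in Chelator. The lowest Chelator library was well above the highest DMSO library. Its mean increased by 55.8%, from 42617 ± 965 to 66384 ± 2344 (log2 fold change 0.64, SE 0.0623, interval 0.517 to 0.761, adjusted p = 3.79e-23).

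CISH (ENSG00000114737.16, chr3:50606489-50611774, minus strand), an SH2 protein that dampens STAT5 activation at cytokine receptors, had normalized counts of 6601, 6069 and 6298 in DMSO and 7824, 7618 and 7978 in Chelator. Again the groups did not overlap. The mean increased by 23.5%, from 6322 ± 267 to 7807 ± 181 (log2 fold change 0.30, SE 0.0697, adjusted p = 6.75e-05). This call ended when changes were centred on their mean over all genes (log2 fold change 0.10, adjusted p = 0.292). Its exons overlap those of MAPKAPK3 on the opposite strand, which share 3.87% of its 31-base sequences.

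SOCS2 (ENSG00000120833.14, chr12:93569814-93583487, plus strand) encodes a brake on growth hormone and cytokine receptors. Its normalized counts were 6528, 5844 and 6329 in DMSO and 6274, 6055 and 5800 in Chelator, with wide overlap (log2 fold change −0.04, SE 0.0763, interval −0.194 to 0.105, adjusted p = 0.708). The ratio of PIM1 to CISH TPM was 5.89, 6.18 and 6.21 in DMSO and 7.84, 7.55 and 7.65 in Chelator. The ratio was higher in every Chelator library, with a log2 difference of 0.33 (exact permutation test, two-sided p = 0.1, the smallest possible, 0.133 adjusted over the 4 ratios).

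**Figure D2:**
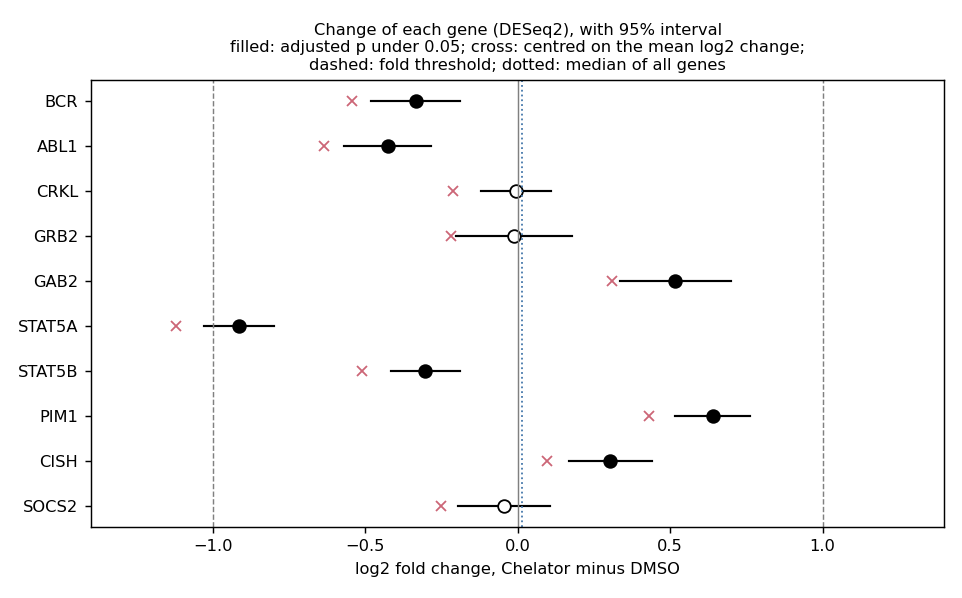
Log2 fold change, Chelator minus DMSO (horizontal axis), of the 10 genes with 95% intervals. Filled circles passed an adjusted p under 0.05, and crosses give the change after centring on the mean over all genes. Dashed lines mark the fold threshold and the dotted line the median of all genes with an adjusted p. STAT5A, at −0.91, comes nearest to the threshold and its cross lies past it, while PIM1 and GAB2 lie to the right at 0.64 and 0.52.

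These directions were checked against other scalings. Median-ratio scaling put the median of all genes with an adjusted p at 0.02 on the log2 scale. Centring on the mean change of 0.208 moved it to −0.19 and the share of calls that were higher to 55.5%. BCR, ABL1, GAB2, STAT5A, STAT5B and PIM1 kept both direction and adjusted p under 0.05 under each scaling tried. STAT5A ranged from −1.12 to −0.87 over all alternatives and passed the fold threshold after centring (−1.12) and after removal of GC and length trends (−1.01). CRKL, GRB2 and SOCS2 changed sign between scalings, and after centring CRKL (−0.21, adjusted p = 0.00115) and SOCS2 (−0.25, adjusted p = 0.00325) passed the test as lower.

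Levels between genes were compared in TPM, which divides by transcript length. In DMSO the order was STAT5A (373 ± 34.7 TPM), PIM1 (234 ± 17.3), CRKL (155 ± 13.5), GRB2 (132 ± 8.67), STAT5B (88.7 ± 8.52), ABL1 (87.4 ± 14.2), BCR (75.7 ± 11.3), SOCS2 (57 ± 2.32), CISH (38.5 ± 2.4) and GAB2 (18 ± 2.32). The ranges of STAT5B and ABL1 overlapped, as did those of ABL1 and BCR, and the other neighbours were separate. In Chelator PIM1 (372 ± 6.21 TPM) stood above STAT5A (202 ± 2.63), and the order below them was the same, with overlap only between BCR (61 ± 4.03) and SOCS2 (56.5 ± 2.04). The exchange of the first and second place was present in every library. PIM1 over STAT5A was 0.643, 0.616 and 0.627 in DMSO and 1.85, 1.79 and 1.89 in Chelator, a log2 difference of 1.55 (exact permutation test, two-sided p = 0.1, the smallest possible, 0.133 adjusted over the 4 ratios).

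**Figure D3:**
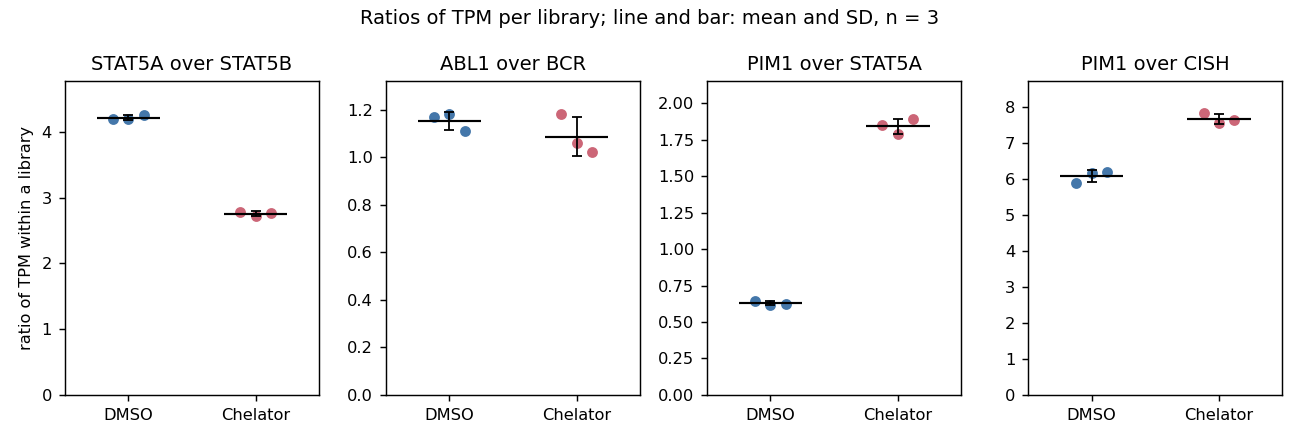
Ratios of TPM within each library (vertical axes from 0) for 4 pairs of genes in DMSO and Chelator; points are libraries, lines and bars the mean and SD (n = 3). STAT5A over STAT5B falls from about 4.21 to 2.76 and PIM1 over STAT5A rises from 0.629 to 1.84, while ABL1 over BCR overlaps.

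Transcript usage was tested to see which annotated transcripts carried these sums. A gene was called when its adjusted Simes p (edgeR diffSpliceDGE) was under 0.05 and the mean share of a transcript in the gene's TPM changed by over 5 percentage points. Of the 10 genes 2 were called, STAT5A and STAT5B, against 9.22% of the 11938 genes tested. That share covers genes of every abundance, and a share for genes as abundant as these was not computed. STAT5A and STAT5B have 15 and 30 annotated transcripts.

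In STAT5A the share of the main protein-coding transcript STAT5A-213 was 50.5%, 49.5% and 50.6% in DMSO and 45.8%, 40.1% and 44.3% in Chelator. STAT5A-209, a protein-coding transcript that starts further upstream, went from 6.21%, 5.82% and 6.42% to 11%, 15.7% and 13.4% (adjusted p for this transcript 5.45e-07). Its estimated counts were 6434, 5920 and 5951 in DMSO and 6828, 10763 and 7621 in Chelator. The rise in share thus came with counts that were level or higher while the gene as a whole fell. The lowest adjusted p in the gene, 1.08e-09, belonged to a minor protein-coding transcript named after its values were seen, STAT5A-215, with 142, 300 and 261 estimated counts in DMSO (a share of 0.241%) and 0 in every Chelator library. STAT5A-205 held 14.3% ± 0.213 in DMSO and 15.2% ± 1.54 in Chelator. The STAT5A call stood without each library in turn, with adjusted p between 1.83e-07 and 0.000663. It also stood when transcripts needed 10 counts in all 6 libraries, which STAT5A-215 did not reach (adjusted p = 5.53e-06).

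In STAT5B the protein-coding STAT5B-201 held 50.7% ± 3.55 and 47.7% ± 4.37, and the retained-intron transcript STAT5B-229 18.7% ± 2.37 and 16.8% ± 0.583. The call came from 2 minor retained-intron transcripts, named here after their values were seen. STAT5B has 30 annotated transcripts, and the test did not take in the uncertainty of assigning reads among them. STAT5B-206 (999 bases, chr17:42210417-42217871) was listed at 0 in all DMSO libraries and at 271, 434 and 312 estimated counts in Chelator, a share of 7.3% ± 1.28. It passed the filter of 10 counts in 3 libraries only through Chelator, where it was high. Its adjusted p (edgeR, 6.34e-11) is therefore not read as support. STAT5B-208 had 826, 1137 and 738 estimated counts in DMSO and was at 0 in Chelator. It passed the same filter only through DMSO, where it was high, and its adjusted p (edgeR, 1.51e-19) is likewise not read as support. Without any 1 of the Chelator libraries STAT5B-206 was no longer tested. The largest share change was then 2.54 percentage points without replicate 2 or replicate 3, where STAT5B was not called, and 5.59 without replicate 1, where it was. STAT5B was also not called when transcripts needed 10 counts in all 6 libraries (3.07 percentage points).

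The largest share change among the 10 genes was in CRKL, but it did not pass (adjusted p = 0.0739). Its transcript CRKL-202 (2037 bases, 4 exons), annotated as a target of nonsense-mediated decay, had 462, 0 and 612 estimated counts in DMSO and 3551, 5702 and 4794 in Chelator. Its share was 1.7% ± 1.54 and 18.5% ± 3.49, while the coding CRKL-201 held 98.3% and 81.5%. No Chelator library overlapped the DMSO libraries. Without DMSO replicate 2, where CRKL-202 was at 0, the adjusted p was 6.79e-05, and limma's diffSplice gave 0.00525. In the fits without each other library it was between 0.12 and 0.318, and with a replicate block 0.245. CRKL-201 has 5342 bases, and with the shift to the shorter CRKL-202 the average effective length of CRKL was 5018 to 5099 bases in DMSO and 4418 to 4649 in Chelator. The length offset raised its Chelator values by that difference.

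None of the remaining genes was called. BCR-202 held 80.2% ± 2.14 in DMSO and 82.7% ± 4.96 in Chelator, and the longer BCR-201 12.5% ± 0.962 and 8.71% ± 0.701 (gene adjusted p = 0.227). ABL1-201 and ABL1-202, which differ in their first exon, held 80.7% and 19.3% in DMSO and 79.6% and 20.4% in Chelator (adjusted p = 1). No fusion transcript was quantified, so the BCR and ABL1 shares may include reads of the fusion, which was not tested. GRB2-202 went from 49.6% ± 6.84 to 42.3% ± 5.48 and the short retained-intron GRB2-207 from 31.9% ± 10.1 to 40.4% ± 5.97, with overlap between the groups (adjusted p = 0.116, or 0.0188 with limma). A GRB2 transcript of 1711 bases annotated for nonsense-mediated decay held 12.8% ± 2.78 and 9.36% ± 1.81. GRB2 was called without Chelator replicate 1 (adjusted p = 0.0261), as was BCR (0.0379). The largest share change of GRB2 was 3.72 percentage points without DMSO replicate 2 and 13.4 without DMSO replicate 3, and neither passed (adjusted p = 0.339 and 0.107). The share of SOCS2-202 was 32.9%, 34% and 38% in DMSO and 26.5%, 24.7% and 24.9% in Chelator, without overlap. SOCS2-201 held 14.8% ± 1.33 and 20% ± 1.8, SOCS2-203 11.1% ± 0.805 and 14.4% ± 1.51, SOCS2-206 10.3% ± 0.499 and 10.8% ± 0.464, and SOCS2-207 10.3% ± 3.81 and 8% ± 1.08. The adjusted p of SOCS2 was 1, but 0.0121 with limma and 0.0338 when transcripts needed 10 counts in all 6 libraries, and both of these called it. GAB2-202 held 75.9% ± 2.22 and 80% ± 2.28 and the short GAB2-206 21.8% ± 1.94 and 14.8% ± 4 (adjusted p = 1, or 0.345 with limma). GAB2-206 (567 bases) had only 102, 89 and 73 estimated counts in DMSO and 161, 115 and 74 in Chelator. GRB2-207 (555 bases) had 1119, 611 and 1450 in DMSO and 1346, 2095 and 2025 in Chelator. The shares of such short transcripts depend strongly on the effective length by which their counts are divided. PIM1-201 held 86.1% ± 0.246 and 84.1% ± 0.794, and CISH-201 94.4% ± 0.888 and 94.2% ± 0.329.

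**Figure D4:**
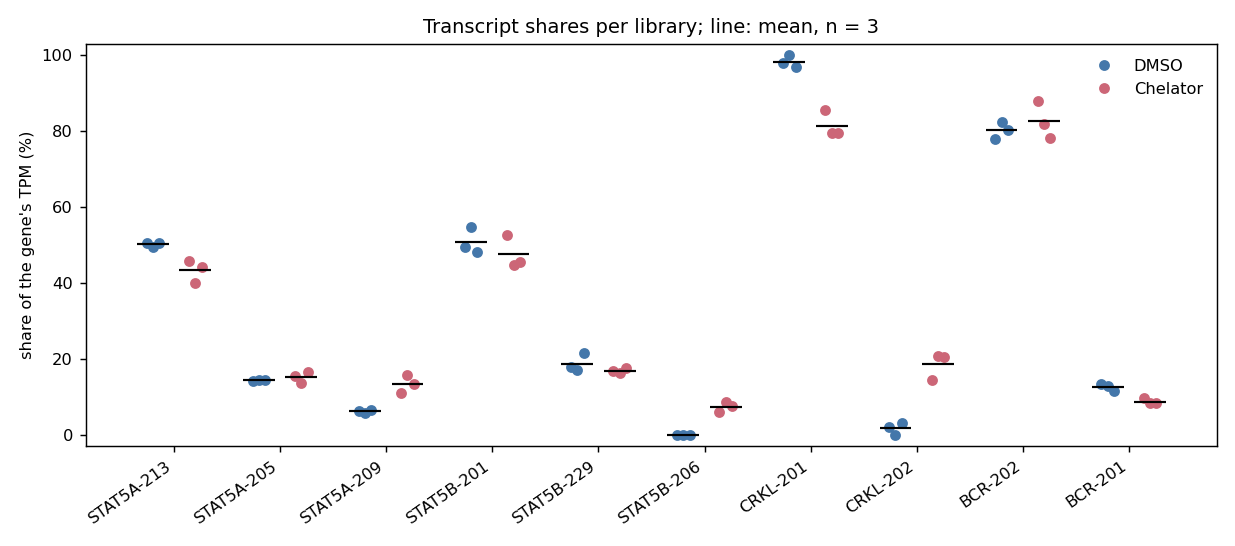
Share of the gene's TPM (%, vertical axis) taken by transcripts of STAT5A, STAT5B, CRKL and BCR in each DMSO and Chelator library; points are libraries and lines the mean (n = 3). STAT5A-209 and CRKL-202 are higher in all Chelator libraries, and STAT5B-206 is at 0 in all DMSO libraries.

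Around these 10 genes, 100 others of the pathway were grouped in 9 lists by role, of which 96 had enough counts to be tested. Of these, 37 rose, 27 fell and 32 did not pass an adjusted p under 0.05, and 13 rose and 1 fell past the fold threshold as well. The background shares are those given above, and the median log2 fold change of the 96 was 0.06. After centring on the mean change 25 rose and 41 fell, so the balance of directions depended on the scaling.

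Of 22 adaptors, docking proteins and tyrosine phosphatases around the fusion kinase, 13 rose, 3 fell and 6 did not pass, with a median of 0.29, beside the 19.5% of all genes that rose and 18.3% that fell, and the 63% of genes averaging 1000 or more normalized counts that passed in either direction. Without the length offset 10 rose and 5 fell, and after centring 9 rose and 6 fell. RIN1, a RAS effector that also binds and activates ABL kinases, had normalized counts of 77.8, 34.8 and 66 in DMSO and 349, 298 and 197 in Chelator (log2 fold change 2.24, SE 0.317, adjusted p = 1.91e-11). DOK2, a docking protein that restrains RAS signalling, rose from 237 ± 35.7 to 720 ± 41.7 (1.60, SE 0.157, adjusted p = 6.2e-23). VAV1, a blood-cell exchange factor for RAC, rose from 799 ± 45.6 to 1913 ± 89 (1.26, SE 0.0999, adjusted p = 1.07e-34). CBLB, a ubiquitin ligase for active kinases, went from 524 ± 257 to 1156 ± 204 (1.14, SE 0.41, adjusted p = 0.0164), and this call ended without DMSO replicate 1 or 3 or without Chelator replicate 1 or 3 (adjusted p between 0.0711 and 0.101). It also ended without the length offset (log2 fold change 0.755, under the fold threshold) and after centring (0.937, adjusted p = 0.0545). PXN (1.1) and UBASH3B (1.19) also passed the fold threshold but were outside the naming rule. The 3 that fell, named after their values were seen, were PTPN11, which encodes SHP2 (−0.79), the RAS activator SOS1 (−0.76) and the docking protein GAB1 (−0.37).

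Among 11 tested cytoplasmic tyrosine kinases, 4 rose, 2 fell and 5 did not pass (median 0.21, and 3 rose and 2 fell after centring). FES, a kinase of myeloid cells, had normalized counts of 142, 69.7 and 95.8 in DMSO and 282, 277 and 282 in Chelator (log2 fold change 1.46, SE 0.259, adjusted p = 1.33e-07). JAK2, the kinase that activates STAT5 at cytokine receptors, fell by a log2 fold change of −0.32 and JAK1 rose by 0.54, both chosen after their values were seen.

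The RAS and ERK arm and the PI3K and AKT arm held more genes that fell than rose. In each the share that passed was near the 63% of genes averaging 1000 or more normalized counts. Of all genes 19.5% rose and 18.3% fell. In the RAS and ERK arm 2 rose, 5 fell and 5 of 12 did not pass (median −0.03, which was 0.02 with TMM factors). With TMM factors and with edgeR 3 rose and 4 fell, and after centring 2 rose and 7 fell. None passed the fold threshold. In the PI3K and AKT arm 2 rose, 7 fell and 5 of 14 did not pass (median −0.21, and 2 rose and 10 fell after centring). PIK3R2, a regulatory subunit of PI3 kinase, had normalized counts of 12079, 12334 and 13081 in DMSO and 6134, 5669 and 5671 in Chelator (log2 fold change −1.1, SE 0.072, adjusted p = 9.98e-51). It was the only gene of the lists that fell past the fold threshold, to which centring added ABL2 (−1.12).

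Of 9 tested cytokine receptors, 4 rose, 1 fell and 4 did not pass. Those past the fold threshold, CSF3R (4.25), KIT (2.89) and CSF2RB (2), had mean normalized counts under 100 and so lay outside the naming rule. EPOR, the erythropoietin receptor, fell from 1905 ± 15.5 to 1407 ± 109 (−0.44, SE 0.0951, adjusted p = 2.37e-05, chosen after its value was seen). Among other STAT genes, named after their values were seen, STAT2 (0.22) and STAT6 (0.23) rose, neither of them after centring, and STAT3 did not pass (−0.07, adjusted p = 0.476).

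Of 12 other reported STAT5 targets tested, 7 rose, 2 fell and 3 did not pass (median 0.28), and after centring 3 rose and 4 fell. CCND1, which encodes the G1 cyclin D1, had normalized counts of 1450, 1451 and 1630 in DMSO and 4971, 4380 and 4495 in Chelator (log2 fold change 1.61, SE 0.0912, adjusted p = 1.01e-67). BCL6, a transcriptional repressor whose gene STAT5 is known to repress rather than activate, had 105, 102 and 107 in DMSO and 461, 434 and 567 in Chelator (2.22, SE 0.19, adjusted p = 9.42e-30). One RefSeq window of BCL6 holds a match to the STAT5 palindrome, TTCCGAGAA, 28 bases before the start. Another BCL6 window and those of CCND3, IL2RA, IGF1, ID1, BCL2L1, PIM2 and PIM3 hold none, and 6.57% of all windows hold a match. ID1 (−0.57) and MYC (−0.28), named after their values were seen, were the ones that fell.

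The other SOCS and PIAS brakes on cytokine signalling included 3 that rose, 5 that fell and 3 that did not pass (median −0.18, and 2 rose and 8 fell after centring). SOCS1, an inhibitor of JAK kinases, had normalized counts of 473, 420 and 442 in DMSO and 1918, 2046 and 2019 in Chelator (log2 fold change 2.16, SE 0.104, adjusted p = 5.07e-93). SOCS2, of the same family, lay at −0.04 in the same fit.

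**Figure D5:**
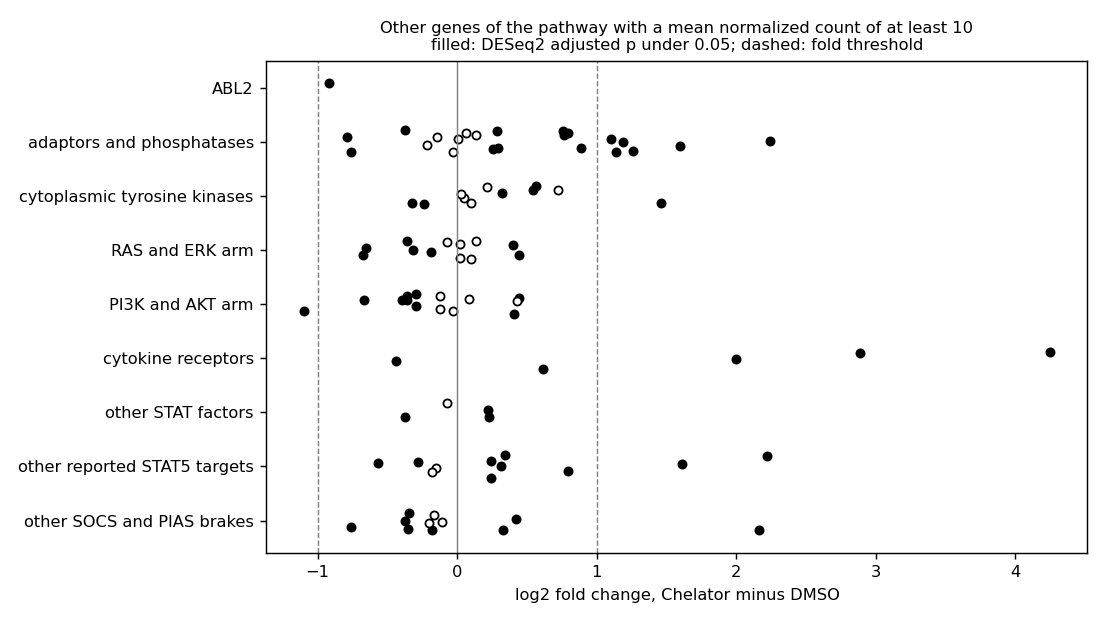
Log2 fold change, Chelator minus DMSO (horizontal axis), of 91 other pathway genes averaging 10 or more normalized counts, by list (vertical axis); filled points passed a DESeq2 adjusted p under 0.05 and dashed lines mark the fold threshold. PIK3R2, at −1.1, is the only point left of the lower line, and 13 points lie right of the upper line.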

How the data were processed

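The authors quantified paired reads with Salmon 1.10.2, per the labels' processing notes. Its transcript annotation, genome build and strand setting are not given in the sources used here. The deposited files hold estimated counts per transcript, of which 86.9% to 88.0% of those above 0 were not whole, and deposited TPM values, the authors' counts divided by effective length and scaled per library. Of 252045 transcripts 251142 matched GENCODE release 44 by identifier, version and length, 470 by another version and 433 not at all. The latter held 0.139% to 0.150% of counts and were left out.

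Estimated counts were summed per gene and rounded. Genes with a total above 10 were fitted with DESeq2 1.42.0 (Wald test, median-ratio size factors, average transcript length as offset, R 4.3.3), and p-values were adjusted by Benjamini-Hochberg over all genes with one. A gene was called where the adjusted p was below 0.05 and the log2 fold change exceeded 1 in either direction, and "rose" or "fell" means adjusted p under 0.05. Normalized counts are divided by size factor and offset. Transcript usage used edgeR 4.0.16 (glmQLFit and diffSpliceDGE) on transcripts that reached 10 counts in 3 or more libraries. The estimates were rounded and entered without their uncertainty, so reads shared among transcripts of a gene remain a limit. Fits were tested on simulated data. TPM ratios were compared by exact permutation tests over libraries. Intervals cover the spread in the fit, and each of the 10 genes had at least 5189 counts in every library, while some pathway genes had far fewer.

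The genes, lists and tests were chosen with earlier results of these data known. Named were all 10 genes, in each list up to 4 called higher and 4 called lower with the largest change and at least 100 normalized counts on average, and transcripts of the 10 genes with a share of at least 10%. Groups and replicate numbers came from the sample labels. Alternatives were other scalings, filters, tools and thresholds, a replicate block, leaving out each library, and leaving out transcripts under 500 bases. Some genes of the lists are not reported here by name.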

Additional observations from a re-analysis of the deposited data

How the results depend on the processing

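Over 17 alternatives BCR ranged from −0.54 to −0.28 (log2 fold change), ABL1 from −0.63 to −0.38, GAB2 from 0.31 to 0.60, STAT5A from −1.12 to −0.87, STAT5B from −0.51 to −0.26, PIM1 from 0.43 to 0.68 and CISH from 0.10 to 0.35. All 7 kept direction, and apart from CISH after centring passed in all but the test against a 1-unit log2 change. By construction, that test and the setting without a fold threshold keep the fold changes of the main fit. The setting without a fold threshold also keeps its p-values. CRKL reversed to 0.0402 with TMM factors and with edgeR, 0.0109 without GC and length trends, and 0.0095, 0.0061 and 0.0043 without DMSO replicate 3, Chelator replicate 1 and Chelator replicate 2. Among fits without 1 library CRKL lay lowest without DMSO replicate 2, at −0.0178. GRB2 reversed to 0.0339 with TMM factors and with edgeR, and to 0.0768, 0.0283 and 0.0013 without the same libraries, and lay at −0.108 without DMSO replicate 2. SOCS2 reversed to 0.0076 without the length offset, 0.000299 with TMM factors and 0.000302 with edgeR. None of these passed the test, and the cause was not tested.

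By construction, the test against a 1-unit log2 change cut the calls from 2646 to 674 (615 higher and 59 lower, 91.2% higher), the 7 of 10 genes to 0 and the pathway genes from 64 to 7, all 7 past the fold threshold, from 14. Without the fold threshold there were 9260 calls (4774 higher and 4486 lower, 51.6% higher), 7 among the 10 genes and 64 in the pathway lists. Centring raised the lower calls from 639 to 1247, and 1 of the 10 genes, STAT5A, was then called, as 1 was with GC and length trends removed.

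For transcript usage, limma called 3184 genes in place of 1101 and 5 of the 10, at least 10 counts in all 6 libraries gave 1994 genes and 3 of the 10 (STAT5A, GRB2 and SOCS2, with STAT5B lost), and a share change of 10 percentage points 728 genes and 0 of the 10. Without single libraries the counts ran from 539 (without Chelator replicate 3) and 592 (without Chelator replicate 2) to 1063, and from 1 to 4 of the 10: 4 without Chelator replicate 1, where BCR and GRB2 joined, 3 without DMSO replicate 2, where CRKL joined, and 1 without Chelator replicate 2 or 3.

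Replicate numbers did not pair the libraries: deviations of same-numbered libraries correlated at −0.0177, 0.0854 and 0.0359. With the replicate block 2345 genes were called (1839 higher and 506 lower), 7 of the 10 passed, 62 pathway genes passed with 14 called, and 923 genes were called for usage. The block changed no gene-level or usage call among the 10 genes.

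Phosphorylation and protein were not measured. Reads of the fusion, of BCR and the genes that share its sequence, of STAT5A and STAT5B, and of genes on opposite strands cannot be told apart where the sequences are the same.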
